A study of Mus musculus with 6 samples.

Results

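The transcriptome described here is that of type 1 conventional dendritic cells (cDC1s) grown in FLT3L-supplemented bone marrow cultures (cDC1FL) of c-Jun/JunB fl/fl mice. All 3 libraries with this genotype were taken, of 6 libraries in the series, and no library of the other genotype entered any value. The mice carried floxed alleles of both c-Jun and JunB and no Cre, so that both genes were intact in the cells. Bone marrow was plated at 3000000 cells per mL with 80 ng/mL recombinant murine FLT3L, and cells were sorted on day 8 as CD24+ CD11c+ B220- CD115- CD172a-. According to the methods, animals of both sexes on a mixed genetic background, 129 Sv with C57BL/6, were used at 8 to 16 weeks of age, and neither sex nor litter was given for a library. The cells were thus a culture-derived counterpart of splenic cDC1s, made without tissue signals and from mice that need not be genetically identical. Libraries were made from poly(A) RNA with a strand-specific kit and read as paired ends on a NextSeq500. The labels give no mouse for a library, and the study's supplement states that the samples were individual mice, so differences between mice and between their cultures cannot be told apart.

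cDC1s are the dendritic cells that take up dying or infected cells and present their antigens to CD8+ T cells on MHC class I, a process called cross-presentation. They form from bone marrow precursors under FLT3L, require the transcription factors IRF8 and BATF3, and bear the chemokine receptor XCR1 and the lectin CLEC9A, which binds actin filaments exposed by dead cells. In mice they are also known for Toll-like receptors that sense double-stranded RNA and profilin, and for IL-12 made upon stimulation.

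Values are CPM, the reads of a gene per 1000000 reads on all genes of the library, in fl/fl libraries 1, 2 and 3, in this order, or means with the SD over these 3 libraries. Levels of different genes are compared per kb of exon (CPM per kb), since long genes collect more reads. The spread of a gene is given as the coefficient of variation (CV, the SD over the mean) beside the CV that read counting alone would give. The libraries held 25860931, 26788296 and 23666519 reads on genes, so that 1 CPM stood for 23.7 to 26.8 reads. Pairs of libraries correlated across 11185 genes with Spearman coefficients of 0.994 to 0.996, a description over genes that share libraries and depth. Libraries 1 and 2 differed by more than 2-fold in 46 of these genes, 2 and 3 in 79 and 1 and 3 in 101. Library 3 stood apart from the other two in several gene groups given further on, and values without it are given there.

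All 6 defining markers of cDC1s were present in every library. Their median CV was 0.0344, and that of detected genes was 0.0408 from 100 to 1000 CPM and 0.0353 above. The 6 genes were thus not set apart by their spread. Irf8, the transcription factor that specifies the lineage (chr8:120736358-120756694 on GRCm38, plus strand), lay at 2781, 2727 and 2642 CPM. Wdfy4, which is required for cross-presentation of cell-associated antigen (chr14:32959547-33185508, minus strand), lay at 3670.2, 3814 and 3614 CPM. Both genes ranked among the 20 highest of the transcriptome by CPM. Both are long, and per kb of exon Irf8 ranked 97 and Wdfy4 104. Xcr1, the receptor for XCL1 (chr9:123852315-123862029, minus strand), lay at 476, 424 and 441 CPM. Clec9a, the dead-cell lectin (chr6:129408862-129424763, plus strand), lay at 271, 275 and 266 CPM. Cadm1, an adhesion molecule used as a cDC1 marker (chr9:47530173-47857637, plus strand), lay at 232, 214 and 228 CPM. Batf3, the AP-1 family partner of IRF8 (chr1:191097847-191108945, plus strand), lay at 57.5, 54.4 and 52.01 CPM. Of the 6, 4 were highest in library 1, against 33.5% of all detected genes, and 4 were lowest in library 3, against 39.5%. The CV lay between 0.01704 for Clec9a and 0.0597 for Xcr1, against 0.0121 and 0.00939 from counting alone.

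Per kb of exon, the order of the 6 markers was Irf8 (385 ± 9.89 CPM per kb), Wdfy4 (351 ± 9.77 CPM per kb), Xcr1 (100.4 ± 5.99 CPM per kb), Clec9a (82.1 ± 1.400 CPM per kb), Batf3 (34.2 ± 1.72 CPM per kb) and Cadm1 (21.5 ± 0.879 CPM per kb). Values of neighbours in this order did not overlap over the 3 libraries. Measured by the longest transcript in place of all exons, the order was the same. A spread beyond counting error was called with a chi-square test of the 3 counts against library totals (Benjamini-Hochberg adjusted p under 0.05), which called 50.1% of the 11185 genes tested, and 4 of these 6 genes. The share of called genes rises with depth, so it is given only as the background for such counts.

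Of 19 further genes linked to cDC1s, all were above 1 CPM in every library. Per kb, Naaa, a lysosomal amidase, was highest (624 ± 34.8 CPM per kb), followed by Id2, the inhibitor of E proteins that cDC1 development needs (449.8 ± 10.3 CPM per kb), Ppt1, a lysosomal thioesterase (302 ± 21.2 CPM per kb), Rab7b, a late endosomal GTPase (192 ± 8.04 CPM per kb), and Cd24a (191 ± 2.29 CPM per kb). The inhibitory receptor gene Btla (149 ± 5.72 CPM per kb) overlapped in its range with the sorting nexin gene Snx22 (148 ± 9.77 CPM per kb), as did that of Rab7b with Cd24a. Genes that mark subsets within cDC1s were less even. Itgae, which encodes CD103, lay at 152, 208 and 257 CPM, lowest in library 1 and highest in library 3. Cd8a, the marker of splenic resident cDC1s, lay at 4.99, 2.99 and 2.66 CPM, low but above the threshold of 1 CPM used here in every library. Ly75, which encodes DEC-205, lay at 42.5, 29.3 and 34.4 CPM, highest in library 1. In bulk RNA, fewer cells with a transcript and less of it per cell cannot be told apart.

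The genes behind the sort gates are no finding, since the gates chose the cells, but their RNA can be given. Cd24a lay at 489, 492 and 500.2 CPM. Itgax, which encodes CD11c, lay at 114, 129 and 152 CPM, lowest in library 1. Ptprc, at 929, 1019 and 975 CPM, encodes all CD45 isoforms, so its count says nothing of the B220 gate. Of the genes behind the negative gates, Sirpa, which encodes CD172a, lay at 44.8, 45.5 and 60.3 CPM and was highest in library 3. Csf1r, which encodes CD115, lay at 3.596, 5.04 and 6.51 CPM. Hence RNA of both negatively gated proteins was above 1 CPM in every library.

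**Figure D1:**
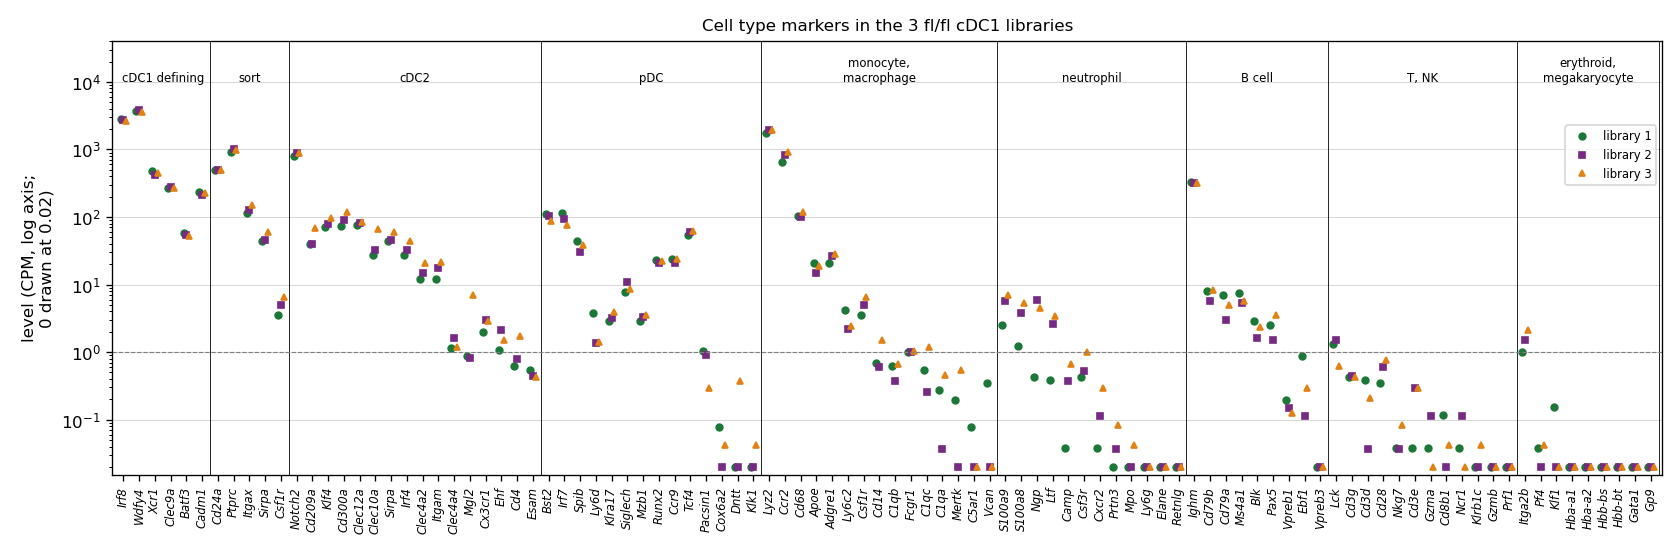
Level in CPM (log axis, 0 drawn at 0.02) of marker genes of cDC1s and of other cells in fl/fl libraries 1 (circles), 2 (squares) and 3 (triangles), ordered within each group by level per kb; the dashed line marks 1 CPM. The 6 cDC1 genes lie above 50 CPM with overlapping symbols, neutrophil genes are lowest in library 1, and T, NK and erythroid genes lie near or at 0.

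RNA of other cell types was read from marker lists, with their part in other results not tested. Of 16 cDC2 genes, 13 were above 1 CPM in every library, and the summed level of the list was 1192, 1344 and 1484 CPM, of which Notch2, a receptor that DC subsets share, made up 802, 901 and 886 CPM. All 13 were lowest in library 1, against 33% of all detected genes, and 9 were highest in library 3, against 32%. Clec10a, a lectin of cDC2s and macrophages, lay at 27.1, 32.6 and 67.4 CPM. Cd209a, the mouse gene closest to DC-SIGN, lay at 39.2, 39.3 and 68.96 CPM, and Mgl2, a second galactose-binding lectin, at 0.889, 0.821 and 6.93 CPM. In each of these the value of library 3 lay apart from the other two. The median CV of the 13 was 0.237 with all libraries and 0.130 without library 3. Esam and Cd4, further cDC2 genes, lay at 0.471 ± 0.0626 CPM and 1.05 ± 0.601 CPM. Genes that DC subsets share were all detected, 10 of 10, among them Dpp4, which encodes a surface peptidase, at 452, 468 and 531 CPM and Kmo, a kynurenine pathway enzyme gene, at 221, 239 and 269 CPM. Of 14 plasmacytoid DC genes, 10 were above 1 CPM in every library. A mean of at least 10 CPM was reached by 6, among them Tcf4, given further on. The highest per kb were Bst2 (111 ± 11.8 CPM per kb) and Irf7 (25.1 ± 4.79 CPM per kb), which other cells use too. The defining Siglech lay at 7.81, 10.8 and 8.58 CPM, and the median of the 14 genes was 6.21 CPM.

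Of 16 monocyte and macrophage genes, 8 passed 1 CPM in every library, and the summed level of the list was 2582, 2920.2 and 3000.3 CPM. This sum came mostly from Lyz2, a lysozyme gene expressed across myeloid cells, at 1765, 1952 and 1913 CPM, and Ccr2, the receptor for CCL2, at 661, 818 and 906 CPM. Of the 16, 5 had a mean of at least 10 CPM, and 3 of at least 100 CPM, Lyz2 and Ccr2 among them. Mertk and C5ar1, the latter the lowest of the list, had mean levels of 0.248 ± 0.279 CPM and 0.0258 ± 0.0447 CPM. Of 12 neutrophil genes, 2 passed, and the summed level was 5.07, 19.2 and 22.4 CPM, lowest in library 1. The granule gene Ngp lay at 0.425, 5.97 and 4.52 CPM, whereas Ly6g, Elane and Retnlg had no read in any library.

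Of 10 B cell genes, 7 passed. Ighm, the heavy chain constant gene of IgM, lay at 334, 319 and 315 CPM, while Cd79a, a signalling chain of the B cell receptor, lay at 6.999, 2.95 and 5.03 CPM. The level of Ighm per kb (171 ± 5.16 CPM per kb) was thus far above that of Cd79a (3.43 ± 1.39 CPM per kb). Vpreb3 had no read. None of 12 T and NK cell genes and none of 9 mast cell, basophil and eosinophil genes passed 1 CPM in every library, with summed levels of 2.75, 3.14 and 2.49 CPM and 1.62, 3.29 and 2.24 CPM. Gzmb, Prf1 and Epx had no read. Of 10 erythroid and megakaryocyte genes only Itga2b passed (1.01, 1.49 and 2.11 CPM), and Hba-a1, Hba-a2, Hbb-bs, Hbb-bt, Gata1 and Gp9 were among those without a read. The hemoglobin genes come in near-identical pairs, and reads that map to both copies were not counted, so their 0 is uncertain. Of 10 genes of non-hematopoietic cells only Epcam passed (2.09, 2.02 and 3.34 CPM), and Col1a1, Col1a2, Krt5, Krt14, Alb, Myh6 and Ins2 had no read. Of 7 progenitor genes, 4 passed, and 2 had a mean of at least 100 CPM. These were Kit, the receptor for stem cell factor, at 289, 316 and 365 CPM, and Ly6a, at 207, 168 and 87.5 CPM. Cd34 lay at 2.01, 2.501 and 1.48 CPM.

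The transcriptome was broad. Of 54532 annotated genes, 11185 reached 1 CPM in each library, 10342 of them protein-coding, and 21232 had a read in any library. Protein-coding genes took 98.7 ± 0.0269% of the reads (SD, n = 3). The 10 most abundant genes of each library held 8.10 ± 0.146% of its reads and the top 1000 held 54.9 ± 0.402%. By mean CPM, 780 genes made up 50% of the reads. Means of at least 1000 CPM were reached by 84 genes, of at least 100 CPM by 2266 and of at least 10 CPM by 8563.

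Genes of MHC class II, translation, the actin cytoskeleton and the lysosome led the list. Cd74, the invariant chain that guides MHC class II through the endosome, was highest by CPM at 11803, 12261 and 12876 CPM. Eef1a1, a translation elongation factor, followed at 9269.8, 8878 and 9587 CPM, then Actb, which encodes beta-actin, at 8495, 8484 and 8232 CPM. The next were Tmsb4x, which encodes the actin-binding thymosin beta 4, H2-Aa, an MHC class II alpha chain, Psap, the precursor of lysosomal saposins, Cst3, which encodes the protease inhibitor cystatin C, H2-Ab1, Mpeg1, which encodes the pore-forming perforin-2, and H2-Eb1. These ran from 8311 ± 274 CPM for Tmsb4x to 6127 ± 314 CPM for H2-Eb1. The second 10 were mt-Co1, Eef2, Wdfy4, Irf8, Tpt1, Rplp0, Naaa, Plbd1, Lsp1 and Rpl4, from 6018 ± 241 CPM to 2137 ± 29.5 CPM. Together the top 20 held 11.1% of the reads.

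Per kb of exon, Cd74 lay at 7334 ± 321 CPM per kb, Tmsb4x at 6062 ± 199.9 CPM per kb and Cst3 at 5738 ± 130.3 CPM per kb. With the longest transcript as length, Tmsb4x lay above Cd74. Further genes among the first 20 per kb were mt-Co1, Eef1a1, H2-Eb1, Actb, H2-Ab1, Psap, Rplp1, H2-Aa, Rps15, Mpeg1, B2m, Lyz2, Rplp0, mt-Cytb, S100a11 and mt-Nd1, the last at 1326 ± 39.00 CPM per kb. Values of several neighbours lower in this order overlapped between libraries, such as those of B2m (1495 ± 95.6 CPM per kb) and Lyz2 (1426 ± 74.97 CPM per kb).

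**Figure D2:**
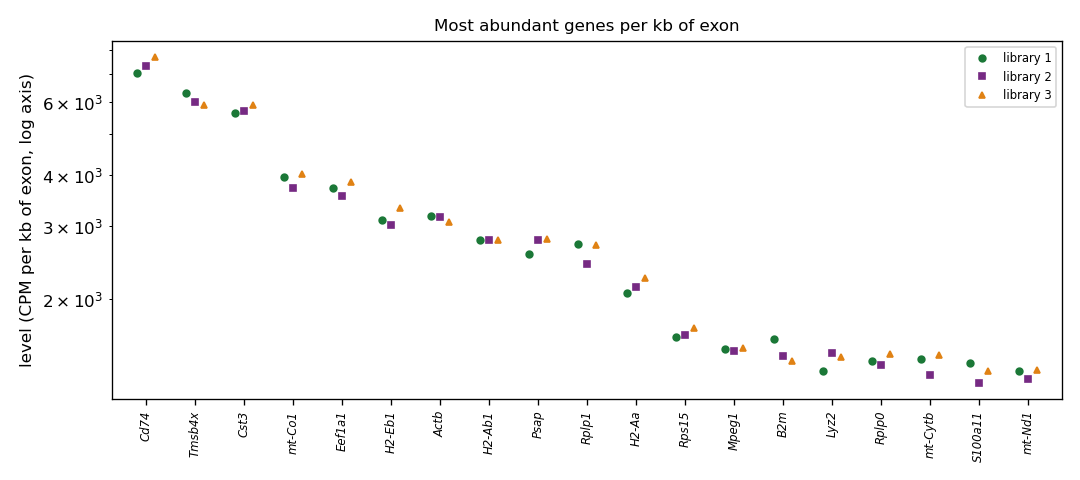
Level in CPM per kb of exon (log axis) of 19 of the 20 most abundant genes on this scale, with 1 symbol per fl/fl library. Cd74, Tmsb4x and Cst3 lie between 5632 and 7669 CPM per kb, and the symbols of mt-Co1 and Eef1a1 and of several later neighbours overlap.

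Ribosomal protein genes as a family took 6.29 ± 0.264% of the reads, with 80 of 84 genes above 1 CPM in every library. Of these 80, 66 were lowest in library 2, against 27.6% of all detected genes. The 13 mitochondrial protein-coding genes took 1.12 ± 0.0541%, most of it from mt-Co1. Only 7 of the 13 passed 1 CPM in every library, and mt-Co2 lay at 0.657, 0.971 and 0.803 CPM. The files tally reads that map to several places apart from genes, so genes with near-identical nuclear copies are uncertain, and these low values may not be levels of the transcript. Of 90 nuclear genes of the respiratory chain 81 were detected, and the median level of the 90 was 30.6 CPM per kb. Of 18 glycolysis genes 17 were detected. Per kb, Ldha, which makes lactate, was highest (189.6 ± 5.56 CPM per kb), followed by Aldoa (139.8 ± 1.103 CPM per kb), Gapdh (117 ± 4.98 CPM per kb), Pkm (100.3 ± 5.02 CPM per kb) and Gpi1 (98.5 ± 5.77 CPM per kb). Ldhb, which encodes the other lactate dehydrogenase subunit, lay at 0, 0.299 and 0.127 CPM. Of 10 chaperone genes, the constitutive Hsp90ab1 and Hspa8 lay at 505 ± 14.7 CPM per kb and 412 ± 4.09 CPM per kb, and the stress-inducible Hspa1a and Hspa1b, a near-identical pair whose counts are uncertain, at 0.461 ± 0.3702 CPM and 0.686 ± 0.2602 CPM.

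Among 30 transcription factors of dendritic and myeloid lineages, 29 were above 1 CPM in each library. Per kb, Id2 (449.8 ± 10.3 CPM per kb) and Irf8 (385 ± 9.89 CPM per kb) stood above all others without overlap, but with the longest transcript as length Irf8 lay above Id2. Spi1, which encodes PU.1, followed at 123 ± 6.27 CPM per kb, then Mycl, the MYC paralog of dendritic cells (79.5 ± 0.924 CPM per kb), Ikzf1, which encodes Ikaros (44.9 ± 0.912 CPM per kb), and Rbpj, the nuclear partner of Notch (41.1 ± 2.21 CPM per kb). Rbpj, Myc, Etv6, Bcl6 and Batf3 formed a run of overlapping values down to 34.2 ± 1.72 CPM per kb. Zbtb46, the factor that marks conventional DCs, lay at 251, 258 and 235 CPM. Runx3, a Runt domain factor, lay at 125, 142 and 143 CPM and Relb, an NF-kB subunit, at 111, 84.03 and 98.8 CPM. These levels were even over the libraries apart from Relb, which was lowest in library 2.

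Regulators of other fates ranged widely but were not at 0. Klf4, which acts in a cDC2 branch, lay at 71.3, 79.3 and 97.9 CPM and Irf4, the cDC2 and activation factor, at 27.5, 32.3 and 43.8 CPM. Both were lowest in library 1 and highest in library 3. Tcf4, the E protein of plasmacytoid DCs, lay at 54.6, 59.9 and 62.2 CPM. Per kb, Irf4 (7.04 ± 1.71 CPM per kb) and Tcf4 (2.15 ± 0.143 CPM per kb) thus lay far below Irf8. Zeb2, required for cDC2s and plasmacytoid DCs, lay at 10.8, 8.55 and 11.2 CPM. Nfil3, which acts early in cDC1 commitment, lay at 6.77, 5.82 and 7.73 CPM. Gfi1, a repressor of myeloid progenitors, lay at 0.193, 0.299 and 0.169 CPM, the only one of the 30 not detected. Per kb, Cebpa, a factor of myeloid progenitors (14.2 ± 1.396 CPM per kb), lay above Cebpb, a factor of monocytes (1.31 ± 0.139 CPM per kb).

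Of 9 interferon regulatory factor genes, 8 were detected. Irf5, which acts downstream of Toll-like receptors, was second to Irf8 per kb (151 ± 6.32 CPM per kb). Irf1 (30.4 ± 3.28 CPM per kb), Irf9 (29.6 ± 1.88 CPM per kb) and Irf7 (25.1 ± 4.79 CPM per kb) overlapped in their ranges, with Irf3 below at 18.1 ± 0.8195 CPM per kb. Irf7 was the most uneven of these 3, at 113, 94.6 and 76.8 CPM.

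The 2 floxed genes were both expressed. Jun, which encodes c-Jun, lay at 71.1, 52.8 and 62.9 CPM, lowest in library 2. Junb lay at 315, 276 and 411 CPM, highest in library 3. Per kb, Junb (145 ± 30.3 CPM per kb) lay above Jun (19.5 ± 2.87 CPM per kb) in every library, and close to Jund (148 ± 8.23 CPM per kb), whose range it overlapped. With the longest transcript as length, Junb lay above Jund. Atf4, the factor of the integrated stress response, lay at 64.4 ± 0.899 CPM per kb. Fos varied widely, at 76.3, 52.5 and 136 CPM, with library 3 highest. Batf3 (34.2 ± 1.72 CPM per kb) lay above its paralog Batf (9.35 ± 0.555 CPM per kb), which is known to replace it when induced, and above Batf2, which lay at 1.199, 0.523 and 0.549 CPM. Of 20 AP-1, ATF and MAF genes, 17 were detected. Batf2 was not, and neither was Fosl1, which had 1 read in library 2 and none in the others. Of further FOS family members, Fosl2 and Fosb were low, at 4.02 ± 1.25 CPM and 3.44 ± 0.3498 CPM.

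**Figure D3:**
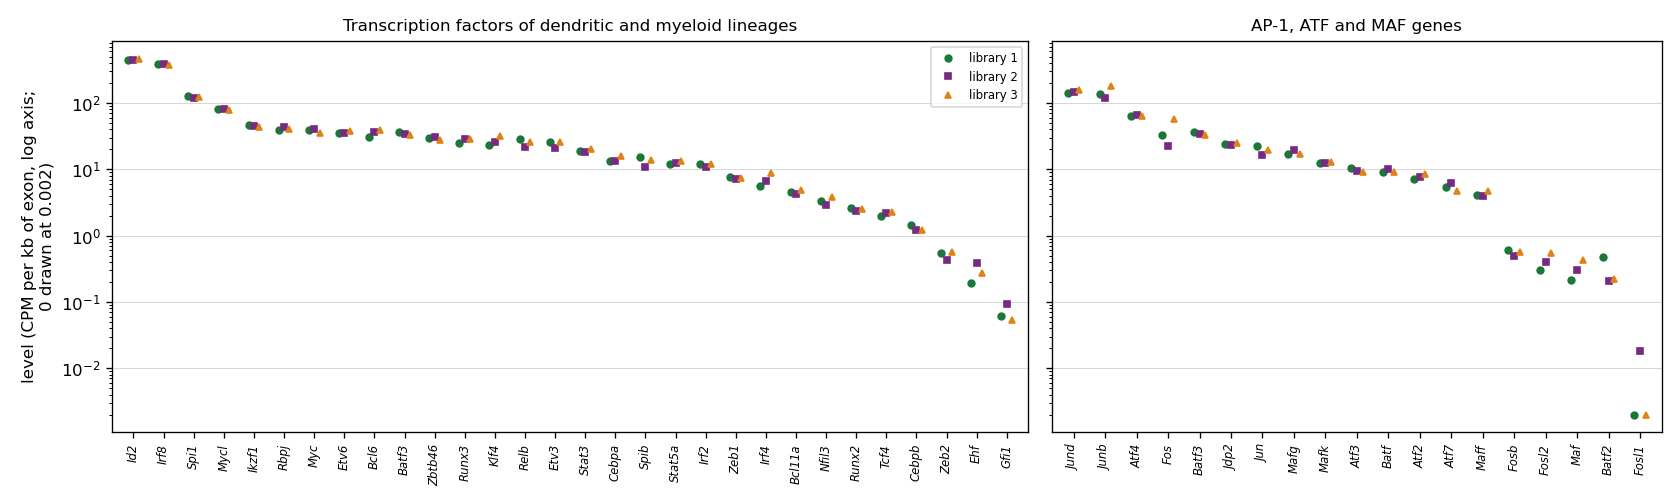
Level in CPM per kb of exon (log axis, 0 drawn at 0.002) of transcription factors of dendritic and myeloid lineages (left) and of AP-1, ATF and MAF genes (right), with 1 symbol per fl/fl library. Id2 and Irf8 lie above 350 CPM per kb, Fos spreads most among the upper AP-1 genes, and Gfi1 and Fosl1 lie at the bottom.

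Genes of the MHC class II pathway were all detected, and together took 3.695 ± 0.128% of the reads. The 4 most abundant, Cd74, H2-Eb1, H2-Ab1 and H2-Aa, lay between 2157 ± 89.5 CPM per kb and 7334 ± 321 CPM per kb. H2-Ab1 was nearly identical in the libraries, at 7144, 7141 and 7159.6 CPM. The peptide exchange factor H2-DM followed, with H2-DMb1 at 340.3 ± 5.42 CPM per kb and H2-DMa at 202 ± 10.6 CPM per kb. Ciita, the coactivator that turns on class II genes, lay at 1068, 1046 and 1100.1 CPM. The subunits of H2-DO, which restrains H2-DM, lay at 98.7 ± 7.82 CPM per kb for H2-Ob and 74.6 ± 11.7 CPM per kb for H2-Oa. Of the 12 genes, 10 were highest in library 3, against 32% of all detected genes, and H2-DMb2 showed the largest spread, at 74.3, 87.5 and 112 CPM. H2-DMb1 and H2-DMb2 are similar in sequence, so the split of reads between them is uncertain.

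Genes of the MHC class I pathway, 23 in all, were also all detected, and took 1.06 ± 0.0552% of the reads. B2m, the invariant light chain, was highest per kb (1495 ± 95.6 CPM per kb), followed by the heavy chain genes H2-D1 (565 ± 39.04 CPM per kb) and H2-K1 (353 ± 36.7 CPM per kb). Of the loading complex, Calr lay at 293 ± 8.91 CPM per kb, Pdia3 at 254 ± 15.9 CPM per kb, Tapbp at 149.7 ± 3.52 CPM per kb, and the peptide transporter genes Tap2 and Tap1 at 120.1 ± 6.05 CPM per kb and 113 ± 3.67 CPM per kb. The immunoproteasome subunit genes Psmb8, Psmb9 and Psmb10 lay at 712, 659 and 617 CPM, 349, 323 and 300.0 CPM and 119, 113 and 107 CPM. Unlike class II, 20 of these 23 genes were lowest in library 3, against 39.5% of all detected genes, and 21 were highest in library 1, against 33.5%. The summed level was 11220, 10393 and 10173 CPM. The median CV was 0.0677, and was 0.0388 without library 1, 0.0849 without library 2 and 0.0601 without library 3. Library 1 thus stood apart most. The median CV of all detected genes was also 0.0677, but the list had a median level of 383 CPM. In the level class that starts at 100 CPM, the median CV was 0.0408. Of the 23 genes, 22 were called beyond counting error, against 50.1% of all tested, a share that rises with depth. For the class II list the median CV was 0.0519, and 0.0218 without library 3. H2-Q7, a class Ib gene, had the largest spread, at 68.8, 47.1 and 42.8 CPM. Heavy chain genes share long stretches of sequence, so values of H2-K1, H2-D1 and the H2-Q genes are uncertain. Of 19 genes of the 20S proteasome, 17 were detected, and 16 of them were lowest in library 3, against the same 39.5%.

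Of 16 cross-presentation genes, 15 were detected. After Wdfy4, the subunits of the phagosomal NADPH oxidase were high, with Cyba at 273 ± 10.03 CPM per kb, Ncf1 at 86.98 ± 2.13 CPM per kb and Ncf4 at 67.3 ± 2.02 CPM per kb. Cybb, the catalytic subunit, lay lower at 9.01 ± 0.331 CPM per kb. Vcp, which extracts proteins from membranes (64.9 ± 4.03 CPM per kb), the GTPase gene Rac2 (43.6 ± 4.97 CPM per kb), the membrane fusion gene Snap23 (32.7 ± 1.14 CPM per kb) and Sec61a1, a translocon subunit (29.3 ± 0.4199 CPM per kb), followed. Of trafficking genes, Rab43 lay at 74.2, 82.1 and 77.03 CPM and Sec22b at 43.3, 42.6 and 39.1 CPM. Mrc1, the mannose receptor of other phagocytes, was the gene not detected, at 0.193, 0.821 and 1.23 CPM. The median CV of the 15 was 0.0368, and none exceeded 0.2, against 9.92% of all detected genes. The median level of the 16 was 140 CPM, and in the level class that starts at 100 CPM the median CV was 0.0408. With so few genes at such levels, the list was not set apart by its spread.

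Among 16 genes of lysosomal proteases and their inhibitor, Cst3 was highest by far. Ctss, the protease that trims the invariant chain, led the cathepsins at 524 ± 29.5 CPM per kb, followed by Ctsz (208 ± 2.45 CPM per kb). Lgmn (60.7 ± 2.27 CPM per kb), Ctsb (59.9 ± 0.807 CPM per kb) and Ctsh (59.2 ± 4.53 CPM per kb) overlapped, and Ctsc lay below them at 39.6 ± 3.65 CPM per kb. Ctsd and Ctsl, major proteases of macrophages, were low, at 7.85, 10.6 and 10.6 CPM and 5.49, 4.37 and 7.01 CPM. Ctsg, a neutrophil protease, had 1 read in library 2.

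Of 12 Toll-like receptor genes, 10 were detected, and their summed level was even, at 1129, 1131 and 1171 CPM. Tlr3, the receptor for double-stranded RNA, was highest per kb (90.3 ± 2.28 CPM per kb) and lay at 457, 472 and 481 CPM. Tlr11 and Tlr12, which bind profilin of protozoa, lay at 259.9, 235 and 259 CPM and 125, 135 and 136 CPM. Tlr9, the receptor for unmethylated CpG DNA, lay at 128, 129 and 136 CPM, and its level per kb (37.6 ± 1.31 CPM per kb) stood just below that of Tlr12 (41.6 ± 1.94 CPM per kb) without overlap. Tlr2 (15.7 ± 0.7099 CPM per kb), Tlr13 (10.8 ± 0.285 CPM per kb), Tlr1 (7.64 ± 0.339 CPM per kb) and Tlr4 (5.46 ± 0.557 CPM per kb) came next in this order, each without overlap with the next. Tlr7, a sensor of single-stranded RNA that cDC1s are known to lack, lay at 4.29, 5.599 and 4.52 CPM, and per kb its values (1.18 ± 0.171 CPM per kb) overlapped with those of Tlr6 (1.23 ± 0.123 CPM per kb). Tlr8 had reads in library 2 only, at 0, 0.523 and 0 CPM, and Tlr5 lay at 0.0773, 0 and 0.465 CPM. No member of the 10 had a CV over 0.2, against 9.92% of all detected genes. With so few genes, the list was not set apart by its spread.

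Unc93b1, which carries endosomal Toll-like receptors to their compartment, lay at 883, 912 and 968 CPM and was highest of 9 adaptor and chaperone genes per kb (304 ± 14.2 CPM per kb). Hsp90b1 and Cnpy3, which fold Toll-like receptors, followed at 167 ± 9.53 CPM per kb and 60.1 ± 3.23 CPM per kb. Myd88 (40.9 ± 1.603 CPM per kb) lay above Ticam1 (14.3 ± 1.09 CPM per kb), the adaptor of TLR3. Cd14 and Ly96, coreceptors of TLR4, were low, at 0.696, 0.597 and 1.52 CPM and 3.09, 2.91 and 2.197 CPM.

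All 19 genes of cytosolic sensing were detected, most at moderate levels. Tmem173, which encodes STING, lay at 103, 113 and 109 CPM, and Cgas, which makes its ligand, at 42.7, 44.01 and 32.9 CPM. Aim2, an inflammasome sensor of DNA, lay at 119, 125 and 127 CPM. Of the RNA sensors, Dhx58 (29.9 ± 3.44 CPM per kb) and Eif2ak2, which encodes PKR (20.7 ± 1.83 CPM per kb), lay above Ifih1, which encodes MDA5 (4.72 ± 0.526 CPM per kb), and Ddx58, which encodes RIG-I (0.821 ± 0.114 CPM per kb). Zbp1, a sensor of Z-form nucleic acids, was uneven, at 25.8, 17.02 and 12.5 CPM. It was lowest in library 3, as were most of the interferon-stimulated genes listed further on. Nlrp3, the inflammasome sensor, lay at 52.1, 48.2 and 56.03 CPM and Nod1, a sensor of peptidoglycan, at 1.199, 1.19 and 2.32 CPM.

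Of 19 lectin receptor genes, Clec9a was highest. Clec2d, a ligand of an NK cell receptor (43.4 ± 4.91 CPM per kb), Cd209a (31.1 ± 10.8 CPM per kb) and Clec12a, an inhibitory receptor for uric acid crystals (14.7 ± 0.842 CPM per kb), followed. Clec7a, which encodes dectin-1, lay at 5.99, 3.55 and 4.56 CPM, and Clec4e, which encodes Mincle, at 0.0773, 0.149 and 0 CPM.

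Most cytokine genes were quiet. Of 18, 10 were detected, led per kb by Tgfb1 (53.1 ± 2.303 CPM per kb), Ebi3, the shared subunit of IL-27 and IL-35 (42.1 ± 2.04 CPM per kb), and Il16 (28.6 ± 0.478 CPM per kb). Il12b, which encodes the p40 subunit, lay at 51.9, 35.7 and 40.6 CPM. Il12a, which encodes its partner p35, had 1 read in library 1 and none in the others. Of the inflammatory cytokines, Il1b lay at 12.5, 10.5 and 17.6 CPM, Tnf at 4.02, 3.99 and 3.63 CPM and Il6 at 0.773, 0.373 and 0.634 CPM. Il1a, Il23a and Ifnb1 had no read in any library, which allows a level of up to 0.0393 CPM (3 reads over the pooled 76315746, counting error only). The 18 genes of the type I interferon family in the annotation also had none. Several of these have near-identical copies, for which reads that map to more than 1 place were not counted.

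Of 16 chemokine genes, Ccl5, which attracts T cells, was highest per kb (103 ± 22.6 CPM per kb) at 114, 73.8 and 108 CPM, lowest in library 2. Cxcl16, a membrane-bound ligand of CXCR6, lay at 188, 169.6 and 190.2 CPM. Ccl22, which draws CCR4+ T cells, lay at 146, 104 and 152 CPM, whereas Ccl17, its close relative, lay at 0.464, 0.859 and 1.56 CPM. Cxcl9 lay at 3.48, 1.79 and 2.24 CPM and Cxcl10 at 0.619, 0.0373 and 0.296 CPM. Ccl19, which has near-identical copies in the annotation, and Cxcl2 had no read.

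Among 13 receptors for chemokines and sphingosine phosphate, Ccr2 (118 ± 18.4 CPM per kb) and Xcr1 (100.4 ± 5.99 CPM per kb) were highest per kb and overlapped. Ccr7, which guides DCs to lymph nodes, lay at 222, 152 and 159 CPM, highest in library 1. Cxcr3, a receptor for CXCL9 and CXCL10, lay at 90.7, 90.4 and 101 CPM. Ccr6 and Cx3cr1 were low, at 1.096 ± 0.424 CPM and 2.64 ± 0.544 CPM.

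Cytokine receptor genes were widely detected, 23 of 25. Ifngr1 (309 ± 32.8 CPM per kb) and Flt3, the receptor for the cytokine that drives these cultures (116 ± 4.83 CPM per kb), were highest per kb, and Flt3 lay at 693, 707 and 751 CPM. The shared beta chain of the receptors for GM-CSF, IL-3 and IL-5, Csf2rb, lay at 481, 479 and 573 CPM, and the GM-CSF receptor alpha chain, Csf2ra, at 176, 192 and 179.7 CPM. Il10ra (81.8 ± 6.13 CPM per kb), Ifnar2 (58.9 ± 0.837 CPM per kb) and Ifnar1 (49.4 ± 2.38 CPM per kb) were of similar order. Csf3r and Il12rb1 were not detected, at 0.654 ± 0.316 CPM and 0.301 ± 0.0329 CPM. Flt3l, the ligand gene, lay at 7.04, 7.09 and 5.11 CPM.

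Of 16 genes of costimulation and inhibition, Btla (149 ± 5.72 CPM per kb), Cd48 (130.4 ± 4.18 CPM per kb), Cd83 (108 ± 8.67 CPM per kb), Havcr2, which encodes TIM-3 (97.9 ± 3.95 CPM per kb), and Cd86 (51.7 ± 1.77 CPM per kb) were highest per kb. Cd80, the second ligand of CD28, lay at 12.99, 13.2 and 16.2 CPM and Cd40 at 18.2, 10.2 and 12.4 CPM. Cd274, which encodes PD-L1, lay at 15.7, 9.11 and 15.1 CPM, lowest in library 2. Cd70, Tnfsf4 and Pdcd1lg2 stayed below 1 CPM.

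The spread over libraries was small for most genes. The median CV over 11185 genes was 0.0677, against 0.0341 from counting alone. It was 0.153 for genes from 1 to 10 CPM, 0.0628 from 10 to 100, 0.0408 from 100 to 1000 and 0.0353 above. The common biological coefficient of variation of edgeR, which takes counting error out, was 0.0862. Without library 3 it was 0.0655, and without library 1 or 2 it was 0.0892 or 0.101. The count of genes called beyond counting error was 5604, and was 2964 without library 3, 3636 without library 1 and 4022 without library 2.

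The narrowest spread among genes of at least 100 CPM was that of Purb, a nucleic acid-binding protein gene, at 277, 277 and 277 CPM. H2-Ab1, Xrn2, Rps3a1, Lims1, Uba1, Cfp and Txndc15 came next, with CVs of 0.00141 to 0.00217. These lay below the CV from counting alone (such as 0.0119 for Purb), as the lowest of many values do. The widest spread among genes of at least 10 CPM was that of Egr1, an immediate-early factor, at 10.98, 4.93 and 49.8 CPM. Ifitm1, which encodes an interferon-induced membrane protein, followed at 66.5, 84.3 and 225 CPM. Then came Gm43305, a transcript without known function, Clec10a, Fos, Chtf18, which loads clamps at replication forks, Ier3, Ccl6, Hfe, H2-M2, Cacna1e and Ly6a, with CVs from 0.562 to 0.395. In 9 of these 12 genes library 3 was the highest, against 32% of all detected genes. In Chtf18 (23.2, 17.9 and 7.65 CPM) and Ly6a (207, 168 and 87.5 CPM) library 3 was the lowest, against 39.5%. The 12 genes were picked by their CV in these same libraries. H2-M2, at 20.8, 8.77 and 13.9 CPM, was highest in library 1.

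**Figure D4:**
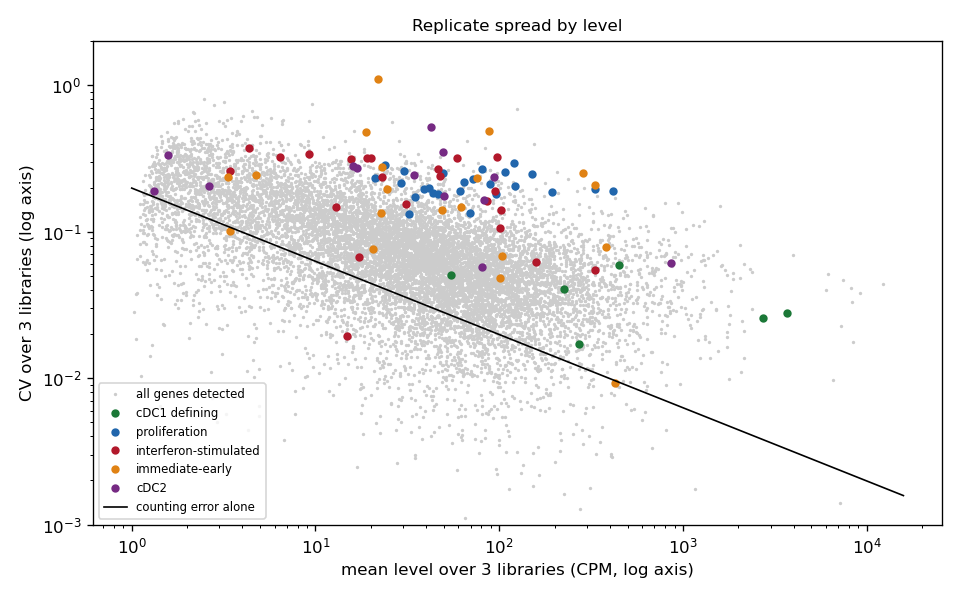
CV over the 3 fl/fl libraries against mean CPM (both log axes) for all 11185 detected genes (grey) and for 5 gene lists (colours); the line is the CV from counting error alone. The 6 cDC1 genes lie at CVs of 0.017 to 0.060, while most proliferation and interferon-stimulated genes lie between 0.1 and 0.4 at levels where most genes are below 0.1.

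Proliferation genes were expressed in all libraries and lower in library 3. All 25 members were highest in library 1 and lowest in library 3, against 33.5% and 39.5% of all detected genes. Mki67, the nuclear marker of cycling cells, lay at 472, 449 and 325 CPM. Top2a, the mitotic topoisomerase, lay at 386, 345 and 260.0 CPM, and Pcna, the sliding clamp of DNA replication, at 227, 197 and 155 CPM. The subunits of the replicative helicase differed more, with Mcm5 at 145, 137 and 79.9 CPM and Mcm6 at 182, 163 and 109 CPM. In each of these 5 genes the step from library 2 down to library 3 was wider than that between libraries 1 and 2. The summed level was 2755, 2529.8 and 1812 CPM. The median CV was 0.206 with all libraries, and 0.0626 without library 3, when 13 of 25 were called beyond counting error against 26.2% of all genes.

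The listed interferon-stimulated genes were low to moderate, and most were also lower in library 3. Of 25, 22 were detected in every library, and 21 of these were lowest in library 3, against 39.5% of all detected genes, with 16 highest in library 1, against 33.5%, and 6 highest in library 2, against 34.5%. Per kb, Ifi27l2a was highest (210.2 ± 67.7 CPM per kb), at 128, 97.7 and 65.8 CPM in the libraries, followed by Bst2 (111 ± 11.8 CPM per kb). Stat2, a signal transducer of interferon receptors, lay at 332, 348 and 312 CPM, with little difference. Isg15, the ubiquitin-like modifier, lay at 24.6, 20.1 and 12.6 CPM, Usp18, which removes it, at 56.4, 51.5 and 34.6 CPM, and Oas3, which makes the activator of RNase L, at 53.8, 53.5 and 32.1 CPM. Rsad2, which encodes viperin, lay at 5.49, 5.04 and 2.49 CPM. The exception among the 22 was Gbp2, a guanylate-binding protein gene, lowest in library 2 at 27.8, 17.1 and 23.8 CPM. Ifitm1, an interferon-induced gene outside the list, was highest in library 3, at 66.5, 84.3 and 225 CPM. The pattern is thus given for the list only. The median CV was 0.238, and 0.0633 over 24 genes without library 3. The summed level was 1451, 1363 and 1095 CPM. Oas and Ifit genes have close paralogs, so single values are uncertain.

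Promoter sequences are shown for members of these 2 lists because nearly all of their genes were lowest in the same library. RefSeq windows on GRCm38.p6, from 250 bases before to 50 after the start, were found for 18 of 25 interferon-stimulated and 20 of 25 proliferation genes. The core of the interferon-stimulated response element, GAAA, any 2 bases and GAAA again, was searched on both strands. It stood in 12 of the 18 windows (66.7%) and in none of the 20 proliferation windows. It also stood in 3.97% of the windows of detected genes and in 3.99% of all 27025 windows. TTTGGCGC and TTTCCCGC, 2 forms of the E2F site, stood in 4 of 20 proliferation windows (20%), those of Mcm3, Mcm5, Mcm6 and Mcm7, in 1 of 18 interferon-stimulated windows (5.56%), in 3.79% of 8569 windows of detected genes, and in 1.80% of all windows. The reverse complement of the first motif and TTTCCCGC both begin with TTTC, and a match is a description of letters, not a bound site. The lists hold genes chosen for these known responses, so these shares do not bear on why library 3 was lowest, which was not tested. None of the 5 windows found for the defining cDC1 genes held either. The 4 windows printed were chosen after the values were seen, with the matches in capitals, 5′ to 3′ on the strand of the gene.
Isg15 (chr4:156200769-156201068, minus strand): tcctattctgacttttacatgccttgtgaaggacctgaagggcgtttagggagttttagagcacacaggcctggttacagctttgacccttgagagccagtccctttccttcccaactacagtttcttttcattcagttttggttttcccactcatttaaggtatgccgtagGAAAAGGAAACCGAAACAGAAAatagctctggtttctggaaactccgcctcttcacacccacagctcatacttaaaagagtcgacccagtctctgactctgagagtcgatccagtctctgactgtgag
Rsad2 (chr12:26456403-26456702, minus strand): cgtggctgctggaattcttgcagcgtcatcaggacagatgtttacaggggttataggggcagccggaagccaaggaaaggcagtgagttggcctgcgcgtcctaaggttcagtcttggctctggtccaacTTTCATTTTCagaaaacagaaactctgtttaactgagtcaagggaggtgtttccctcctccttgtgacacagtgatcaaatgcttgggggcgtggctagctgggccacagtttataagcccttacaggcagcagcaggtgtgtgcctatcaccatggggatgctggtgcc
Mcm5 (chr8:75109259-75109558, plus strand): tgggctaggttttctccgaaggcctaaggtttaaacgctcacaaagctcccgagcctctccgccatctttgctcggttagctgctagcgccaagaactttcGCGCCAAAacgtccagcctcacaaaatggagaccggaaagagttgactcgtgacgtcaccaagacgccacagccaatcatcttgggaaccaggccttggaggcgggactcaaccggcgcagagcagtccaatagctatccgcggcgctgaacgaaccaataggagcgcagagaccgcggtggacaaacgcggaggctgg
Mcm6 (chr1:128359656-128359955, minus strand): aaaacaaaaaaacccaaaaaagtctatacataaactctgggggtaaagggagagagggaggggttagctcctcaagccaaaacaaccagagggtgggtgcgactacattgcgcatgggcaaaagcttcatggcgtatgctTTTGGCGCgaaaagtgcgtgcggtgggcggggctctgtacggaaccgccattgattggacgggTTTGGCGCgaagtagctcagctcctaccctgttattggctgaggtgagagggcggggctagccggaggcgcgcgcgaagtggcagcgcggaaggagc
Isg15 held 3 overlapping matches in 1 run, Rsad2 1, Mcm5 1 and Mcm6 2.

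Immediate-early genes, which many stimuli and the handling of cells are known to induce within minutes, were uneven in another way. Of 20, 19 were detected, 15 of them highest in library 3, against 32% of all detected genes, and 12 lowest in library 2, against 27.6%. Zfp36, which encodes a protein that destabilises cytokine mRNAs, lay at 255, 235 and 368 CPM, and Ier2 at 71.6, 59.99 and 94.2 CPM. Dusp1, a phosphatase of MAP kinases, lay at 23.5, 19.5 and 25.6 CPM. Per kb, Btg2, an antiproliferative gene (139 ± 11.01 CPM per kb), and Klf6 (96.8 ± 0.898 CPM per kb) came after Junb, and Klf6 was even, at 420.5, 427 and 428 CPM. Myc (107, 109 and 96.1 CPM) and Atf3 (22.5, 20.01 and 19.5 CPM) were lowest in library 3, unlike the others. The median CV was 0.194. It was 0.125 without library 3, 0.135 without library 2 and 0.193 without library 1. Library 3 also held the highest summed level of cDC2 genes, given above, and the part of such cells in these 3 lists was not tested.

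Genes of mature DCs were lowest in library 2 and mostly highest in library 1. Of 16, 15 were detected, and all 15 were lowest in library 2, against 27.6% of all detected genes, with 11 highest in library 1, against 33.5%. Fscn1, which bundles actin in mature DC dendrites, lay at 293, 184 and 235 CPM. Apol7c, an apolipoprotein L gene of cDC1s, lay at 291, 207 and 297 CPM, Il4i1, an amino acid oxidase gene, at 93.00, 57.5 and 86.1 CPM, and Cacnb3, a calcium channel subunit gene, at 127, 83.1 and 99.1 CPM. The median CV was 0.193. It was 0.101 without library 2, 0.124 without library 1 and 0.239 without library 3. Libraries 1 and 2 thus lay on either side of library 3, with median log2 ratios to the mean of 0.238, -0.259 and -0.00931 in libraries 1, 2 and 3. The summed level was 1942, 1419 and 1763 CPM.

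**Figure D5:**
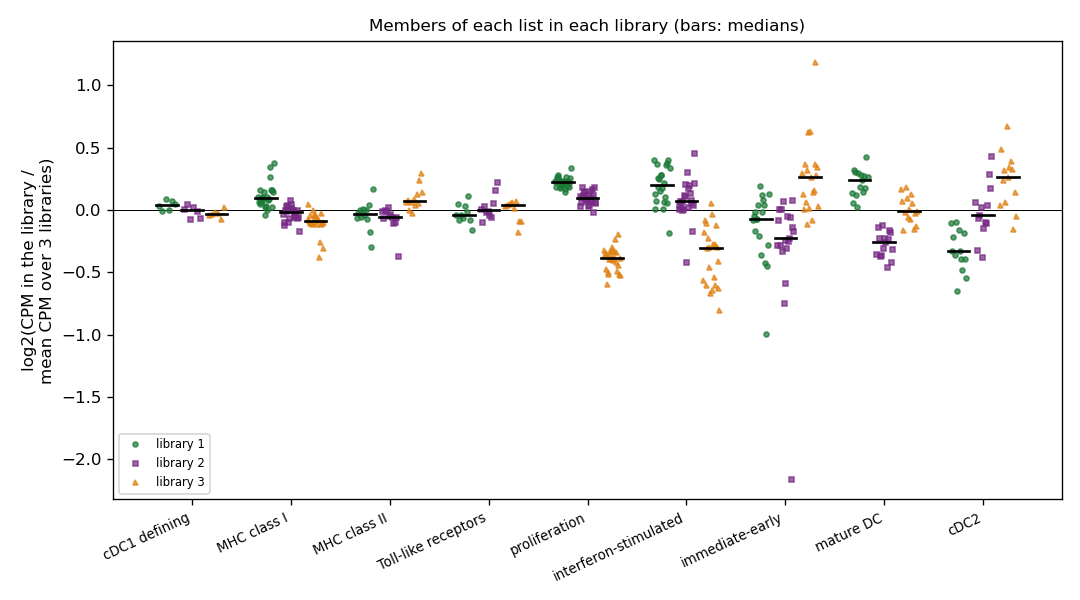
Log2 ratio of CPM in each fl/fl library to the mean of the 3 libraries for detected members of 9 gene lists, with 1 symbol per gene and library and black bars at the medians. The medians of proliferation and interferon-stimulated genes lie below 0 in library 3 and that of mature DC genes in library 2, while cDC1 genes and Toll-like receptors stay close to 0.

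Genes without reads were counted over all 3 libraries. Of 21995 protein-coding genes, 8087 had no read, and 33300 of all 54532 genes. Of 1135 olfactory receptor genes, 1113 had none and 1 was detected, Olfr433, at 5.53, 6.76 and 7.61 CPM. Of 324 vomeronasal receptor genes 317 had none, of 64 defensin genes 62, of 53 keratin genes 46, of 38 taste receptor genes 36, and of 57 clustered protocadherin genes 40. Of 39 Hox genes, 28 had none and 4 were detected, led by Hoxb4 (8.31, 8.14 and 7.82 CPM) and Hoxa7 (5.99, 5.04 and 8.83 CPM). These named family members were chosen after their values were seen. Of genes that are not protein-coding, the most abundant were Gm42418 (1343, 1302 and 1299.7 CPM), which overlaps a ribosomal RNA repeat in the genome and is uncertain, Malat1 (1213, 1381 and 1249 CPM) and Neat1 (352, 396 and 419 CPM), also chosen after their values were seen.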

How the data were processed

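RNA-seq was measured in FLT3L-cultured, sorted c-Jun/JunB fl/fl cDC1s (3 libraries, grouped by genotype label). The deposited values are raw counts per gene. According to the methods, the authors aligned reads to GRCm38 with STAR 2.6.1a in 2-pass mode and counted reads per gene with STAR, using Gencode vM19. The files tally multimapping reads apart from genes. The submitters' processing notes also list RSEM, bcl2fastq 2.19.1.403 and DESeq2 1.20.0. Which strand setting was counted: not given in the sources used here.

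Tallies outside genes were left out, and 79.4 to 79.6% of reads lay on genes. Counts were divided by these totals and given per 1000000 reads (CPM). Lengths were merged exons and names those of GENCODE M21, in which 37 of 54532 identifiers were not found. A symbol with several identifiers took the one with most reads. Genes with at least 1 CPM in each library were called detected. Spread beyond counting error was tested with a chi-square test (2 degrees of freedom, Benjamini-Hochberg adjusted p under 0.05). On simulated data with 11185 genes, 189 of 200 genes with an added CV of 0.5 and 13 others were called. The others were simulated with counting error only, whereas the real libraries had a common biological CV of 0.0862. The 13 calls thus do not carry over to the real genes. Floors cover counting error only.

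Genes were named as the 20 highest by CPM and per kb, the highest members and those without a read of 36 lists, and the widest (12, mean at least 10 CPM) and narrowest (8, mean at least 100 CPM) CVs. A few genes of this rule are not reported here. The members and lists were chosen with earlier results of these data known. Alternatives were other scalings, filters and lengths, and leaving out each library. List values without a library, and the promoter search, were added after the data were seen. Python 3.11.15, scipy 1.17.1, R 4.3.3, edgeR 4.0.16 and DESeq2 1.42.0 were used.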

Additional observations from a re-analysis of the deposited data

How the results depend on the processing

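Limited to protein-coding genes, 8087 genes had no read, against 33300 of all genes. Per kb of exon, the 10 most abundant genes held 13.8% of the total in place of 8.10%. The median CV of 0.0677 became 0.102 without a filter and 0.0555 with a mean of at least 10 CPM, and lay between 0.04999 and 0.0610 with 1 library left out, when SDs come from 2 libraries. The 5604 genes called beyond counting error became 897 when a CV above 0.2 was also asked for, and between 2964 (without library 3) and 4022 (without library 2) with 1 library left out, when fewer libraries and reads entered the test. The biological CV of 0.0862 lay between 0.0655 (without library 3) and 0.101 (without library 2). Detected genes numbered 10342 to 11959 under the other filters. With TMM factors (0.997 to 1.003), 0 of 537 gene levels and 0 of 36 list levels differed by more than the SD between libraries. With the longest transcript as length, 265 of 537 gene levels per kb did, so orders between genes of similar level depend on the length used. Depth limits genes below 1 CPM, where the 3 counts rest on fewer than 27 reads. No paired analysis was possible because only 1 group was described and no test between groups was made.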
